A study of Mus musculus with 6 samples.

Results

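Cells of the urinary tract wall sense filling as stretch. Ion channels such as PIEZO1, PIEZO2 and members of the TRPV family open on mechanical or related stimuli, cells then release ATP through pannexin channels or from vesicles, and the ATP acts on P2X channels and P2Y receptors of neighbouring urothelial, muscle, nerve and immune cells. In the bladder and ureter this chain is known as mechanosensory purinergic signalling, and in macrophages P2X7 is known for its link to inflammasome activation. Here 10 genes of the chain were followed in mouse ureter. They were taken by name from the array annotation: the stretch channels Piezo1, Piezo2, Trpv2 and Trpv4, the ATP release genes Panx1 and Slc17a9, and the nucleotide receptors P2rx4, P2rx7, P2ry2 and P2ry6. All 10 were on the array, with 29 probes among 56605.

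The samples were ureters of mice on a C57BL/6N background, 2 months old, taken 4 days after unilateral ureteral obstruction, in which the ureter of 1 side is closed so that urine backs up. The obstruction was common to both groups, so no unobstructed ureter enters any comparison. One group held 3 mice labelled Col17a1-KO (2 males and 1 female, replicate 3) and the other 3 male mice labelled Col17a1-WT, with 1 single-colour Agilent array per mouse. Col17a1 encodes collagen XVII, a hemidesmosome protein that anchors basal epithelial cells. The question put to these genes is whether their signal in obstructed ureter differs with the genotype label. How the gene was disrupted, and where, is not in the labels.

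Col17a1 itself was not lower under the KO label. Its brighter probe had log2 levels of 0.50, 0.53 and 0.40 in the KO-labelled ureters, against -2.33, -0.80 and -0.39 in WT ureters, a difference of 1.65 ± 0.48 (standard error; limma, adjusted p = 0.45). Its other probe differed by 1.10 ± 0.19 (standard error; limma, adjusted p = 0.378). At both probes all KO-labelled ureters lay above all WT ureters, as they did for 7.02% of all probes. Where these probes lie relative to the disruption is not known, so their signal cannot check the label. The group is therefore called KO-labelled, and each direction below rests on the label. A level here is the log2 of a probe's background-subtracted signal minus the log2 of that array's 75th percentile signal, so 0 is as bright as the 75th percentile probe. Levels of different probes depend on the probe and are not set against each other. All 11 superficial urothelium markers and all 10 smooth muscle markers were well above background on all 6 arrays. On any array 35482 to 36567 of the 56605 probes were so. The macrophage, fibroblast and endothelium markers were also well above background on all 6 arrays, so this does not single out ureter. WT replicate 2 stood apart in kidney markers, whose summed signal was 1.15 times the array's 75th percentile, against 0.281 to 0.333 in KO-labelled ureters and 0.307 and 0.334 in the other WT ureters. That sum rests on the 4 of 10 listed kidney markers that could be tested, all together dim. Their mean log2 level was -2.22 in WT replicate 2 and -4.13 to -3.88 on the other arrays. Array signals at the 75th percentile ran from 143.7 to 164.9.

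A test was possible for 23 of the 29 probes, each of them well above background in all 6 ureters, and these covered all 10 genes. The other 6 had no test: 3 for Piezo2 and 1 each for Panx1, Slc17a9 and P2ry2. None of the 6 was well above background on any array except 1 Piezo2 probe, which was so on 1 KO-labelled array. Each gene is described by its brightest tested probe, called probe 1, and its other probes are given beside it.

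No gene of the set passed the adjusted threshold of 0.05 in limma, with adjusted p-values from 0.45 to 0.994 over the 10 genes. Over the whole array 0 of 35069 probes passed (0.0%), while 3247 (9.26%) had an unadjusted p under 0.05. At that unadjusted level 1 of the 10 genes, Trpv4, was higher in KO-labelled ureters, beside 4.32% of all 22260 genes taken by their brightest probe. Another 1 of the 10, P2rx4, was lower, beside 4.64% of all genes. The 3 KO-labelled arrays lay wholly above the 3 WT arrays for Trpv4, as they did for 7.28% of all genes. They lay wholly below for P2rx4 and P2rx7, as they did for 8.13% of all genes. Differences, KO-labelled minus WT, ran from -0.54 for P2rx4 to 0.44 for P2ry2, so no gene differed by as much as 1 on the log2 scale. In either direction 2 of the 10 had an unadjusted p under 0.05 in limma, beside 8.95% of all genes, and 3 of the 10 did not overlap, beside 15.4% of all genes. The genes split into 5 higher and 5 lower, where 50.2% of all genes were lower, with a median of -0.16, where the median over all tested probes was -0.01.

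**Figure D1:**
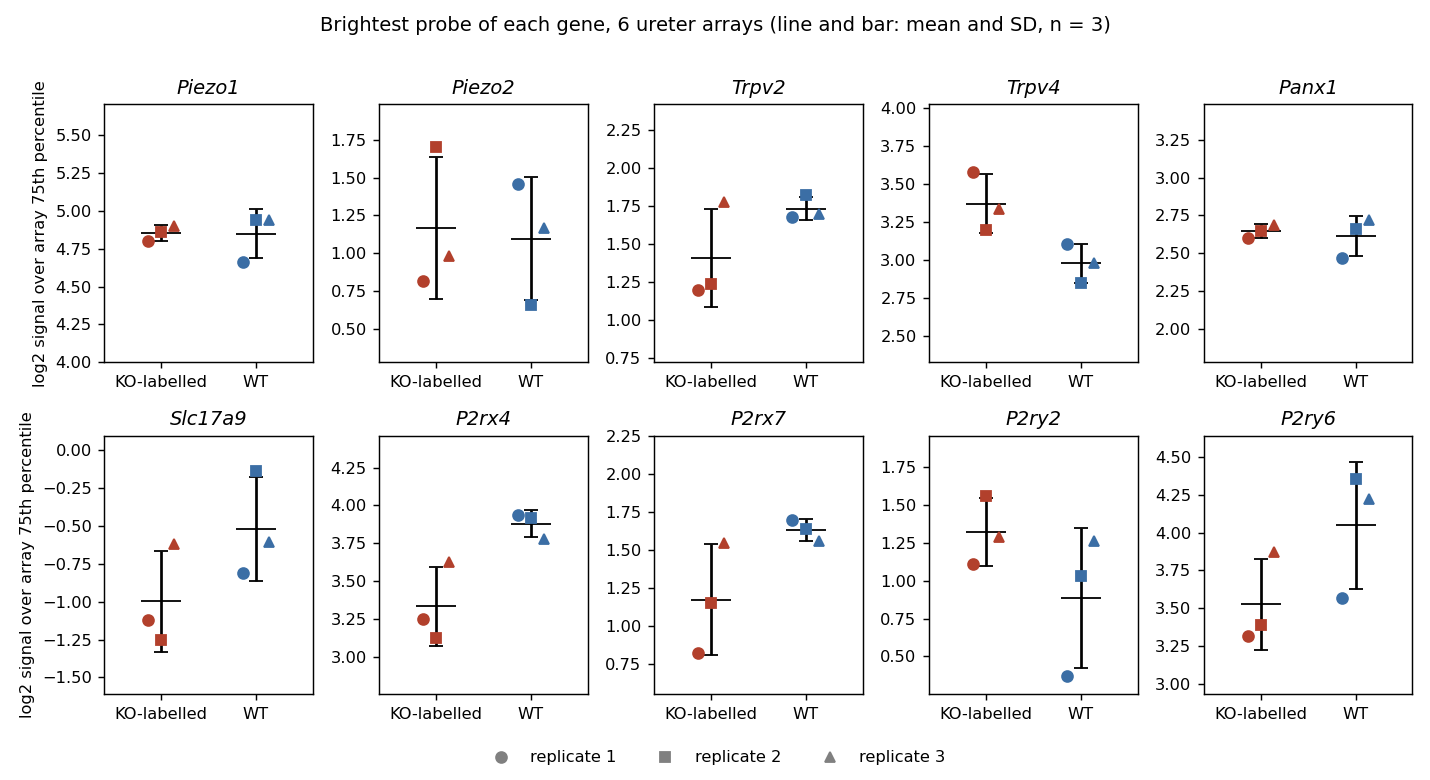
Levels of the 10 genes at their brightest probe on each array (log2 of signal over the array's 75th percentile), KO-labelled ureters left and WT ureters right in each panel. Points are mice, marked by replicate number, the horizontal line is the mean and the bar the SD (n = 3), and every panel spans the same height. The groups lie apart for Trpv4, P2rx4 and P2rx7, and Piezo1 and Panx1 vary least.

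The stretch channels did not share a direction. Trpv4, a calcium channel of urothelium opened by swelling, warmth and stretch, had levels of 3.58, 3.20 and 3.34 in KO-labelled ureters, against 3.11, 2.85 and 2.98 in WT ureters. All 3 KO-labelled ureters lay above all WT ureters, with KO replicate 2 and WT replicate 1 closest to each other. The difference was 0.40 ± 0.14 (standard error), a ratio of 1.32 (limma, unadjusted p = 0.0286, adjusted p = 0.499). Its other probe separated the groups too, with levels of -2.09, -2.24 and -2.47 in KO-labelled ureters and -2.88, -3.04 and -2.86 in WT ureters. That probe gave a difference of 0.66 ± 0.13 (standard error) and the lowest adjusted p among the 23 probes, 0.427. The difference at probe 1 stayed between 0.29 and 0.48 when any 1 array was left out.

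The files place the 60-base Trpv4 probes on the minus strand, at chr5:115072208-115072267 for probe 1 and chr5:115076951-115077010 for probe 2 (mm9). Their last 30 bases are shown because both separate stretches of Trpv4 gave the same direction. Neither holds a polyadenylation hexamer, which capitals would mark.
Trpv4 probe 1: ctggctagtgtgggtcttctgtactttgaa
Trpv4 probe 2: cgcgacagcgagaccttcagcgccttcctc

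Trpv2, a related channel that is strongly expressed in macrophages and in some nerve and muscle cells, went the other way. Its levels were 1.20, 1.24 and 1.78 in KO-labelled ureters, against 1.68, 1.82 and 1.70 in WT ureters. KO replicates 1 and 2 were below every WT ureter, while KO replicate 3 lay among them, so the groups overlapped. The difference was -0.33 ± 0.18 (standard error; limma, adjusted p = 0.61), and its other probes gave -0.36 and -0.40. Without KO replicate 3 it was -0.51.

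Piezo1, the stretch channel of epithelial and endothelial cells, was level between the groups. It had 4.80, 4.86 and 4.90 in KO-labelled ureters, against 4.66, 4.94 and 4.94 in WT ureters. The mean levels were 4.85 ± 0.05 and 4.85 ± 0.16 (SD, n = 3 each), and the 95% interval of the difference ran from -0.29 to 0.30 (limma). A second, dimmer probe gave 0.02 with an interval from -0.27 to 0.30. KO-labelled and WT values interleaved at both probes.

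Piezo2, the touch and proprioception channel of sensory neurons, had levels of 0.82, 1.70 and 0.98 in KO-labelled ureters, against 1.46, 0.66 and 1.17 in WT ureters. It varied widely inside both groups, with KO replicate 2 the highest and WT replicate 2 the lowest of the 6. The difference was 0.07, with an interval from -0.64 to 0.78 (limma, adjusted p = 0.957). Its other 3 tested probes gave 0.20, 0.20 and 0.10. The sign at probe 1 depended on single arrays: it was -0.20 without KO replicate 2 and -0.15 without WT replicate 2.

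The ATP release genes also parted. Panx1, which forms the pannexin channel through which ATP leaves cells, had levels of 2.60, 2.65 and 2.69 in KO-labelled ureters, against 2.47, 2.66 and 2.72 in WT ureters. The difference was 0.03 with an interval from -0.24 to 0.30 (limma, adjusted p = 0.952). A dimmer probe of Panx1 gave 0.42, with an interval from -0.14 to 0.98, and WT replicate 1 was its lowest value at -3.69. Slc17a9, the vesicular nucleotide transporter that loads ATP into secretory vesicles, had levels of -1.12, -1.25 and -0.62 in KO-labelled ureters, against -0.81, -0.14 and -0.61 in WT ureters. KO replicates 1 and 2 were the lowest of the 6 arrays and WT replicate 2, the array with kidney markers, was the highest. Slc17a9 differed by -0.48 ± 0.24 (standard error; limma, adjusted p = 0.585). It was -0.28 without WT replicate 2, and the part of kidney tissue in it was not tested.

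Of the 4 receptors 3 had lower values in the KO-labelled ureters. P2rx4, an ATP-gated cation channel of macrophages, microglia, epithelium and smooth muscle, had the lowest adjusted p of the 10 genes. Its levels were 3.25, 3.13 and 3.63 in KO-labelled ureters, against 3.94, 3.92 and 3.78 in WT ureters. All WT ureters lay close together and above every KO-labelled ureter, of which replicate 3 came closest. The mean was 3.34 ± 0.26 in KO-labelled ureters and 3.88 ± 0.09 in WT ureters (SD, n = 3 each), a difference of -0.54 ± 0.16 (standard error; limma, unadjusted p = 0.012, adjusted p = 0.45). In whole-ureter RNA, fewer cells of a type and less RNA per cell cannot be told apart. Leaving out any 1 array gave -0.69 to -0.44.

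Both other P2rx4 probes were lower as well. Probe 3 had levels of -2.32, -2.58 and -1.50 in KO-labelled ureters, against -0.97, -1.17 and -1.42 in WT ureters, a difference of -0.95 ± 0.29 (standard error). Probe 2 differed by -0.59 ± 0.23, and there KO replicate 3 lay within the WT range. The files give a RefSeq transcript, variant 1, for probes 1 and 3 and none for probe 2, which lies nearer the start of the gene.

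P2rx7, the low-affinity ATP channel that triggers potassium efflux and interleukin-1 release in macrophages, is the gene next to P2rx4 on chromosome 5, with 0 protein-coding genes starting between them in RefSeq. Its levels were 0.82, 1.15 and 1.55 in KO-labelled ureters, against 1.70, 1.64 and 1.56 in WT ureters. The groups did not overlap, but KO replicate 3 and WT replicate 3 nearly met. The mean was 1.18 ± 0.36 in KO-labelled ureters and 1.64 ± 0.07 in WT ureters (SD, n = 3 each), a difference of -0.46 ± 0.19 (standard error; limma, unadjusted p = 0.0513, adjusted p = 0.542). It was -0.65 without KO replicate 3 and -0.29 without KO replicate 1.

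The 3 tested P2rx7 probes are assigned in the files to different transcript variants, and all gave close to the same difference. Only probe 1 separated the groups. At probes 2 and 3, KO replicate 3 lay within the WT range, at -0.58 and -1.47. Probe 1 (variant 1) differed by -0.46, probe 2 (variant 4) by -0.51 with an unadjusted p of 0.0459 and an adjusted p of 0.529 in limma, and probe 3 (variant 2) by -0.51. Probe 3 spans 2886 bases of genome with its 60 bases and so reads across a splice junction. The last 30 bases of each P2rx4 and P2rx7 probe are shown because the direction at this pair of neighbouring genes rests on them. Capitals mark AATAAA or ATTAAA, the hexamers of polyadenylation signals, which occur in the last 30 bases of 11.9% of all tested probes and of 5 of the 23 tested here. Coordinates are mm9, plus strand: chr5:123178983-123179042, chr5:123159750-123159809 and chr5:123179545-123179604 for P2rx4 probes 1 to 3, and chr5:123134194-123134253, chr5:123105174-123105233 and chr5:123120528-123123413 for P2rx7 probes 1 to 3.
P2rx4 probe 1: tgacctaggaccaaacATTAAAgaaaataa
P2rx4 probe 2: ctgaatgctcaagctgtctcaATTAAAatg
P2rx4 probe 3: tgaaatggttttaaggagacgctggtttgt
P2rx7 probe 1: ctaaactcttcctaatttcgtgtaagggtt
P2rx7 probe 2: tcacaaaattaatgttagagtttcttttag
P2rx7 probe 3: ccagctggttgtatacattggatccaccct

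P2ry6, a receptor for UDP that drives phagocytosis in microglia and macrophages, had levels of 3.32, 3.39 and 3.87 in KO-labelled ureters, against 3.57, 4.35 and 4.22 in WT ureters. The groups overlapped, because WT replicate 1 lay below KO replicate 3. The difference was -0.52 ± 0.25 (standard error; limma, adjusted p = 0.58), and its other tested probe gave -0.76 ± 0.34. It was -0.75 without WT replicate 1 and -0.37 without WT replicate 2. P2ry2, a receptor for ATP and UTP found on urothelium and other epithelia, was the receptor with a higher value. Its levels were 1.11, 1.56 and 1.29 in KO-labelled ureters, against 0.37, 1.03 and 1.26 in WT ureters. The low value of WT replicate 1 carried much of the difference, which was 0.44 ± 0.25 (standard error; limma, adjusted p = 0.626) with all arrays and 0.18 without that one. P2ry2 and P2ry6 are neighbours too, on chromosome 7 with 0 protein-coding genes starting between them, and their differences had opposite signs.

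**Figure D2:**
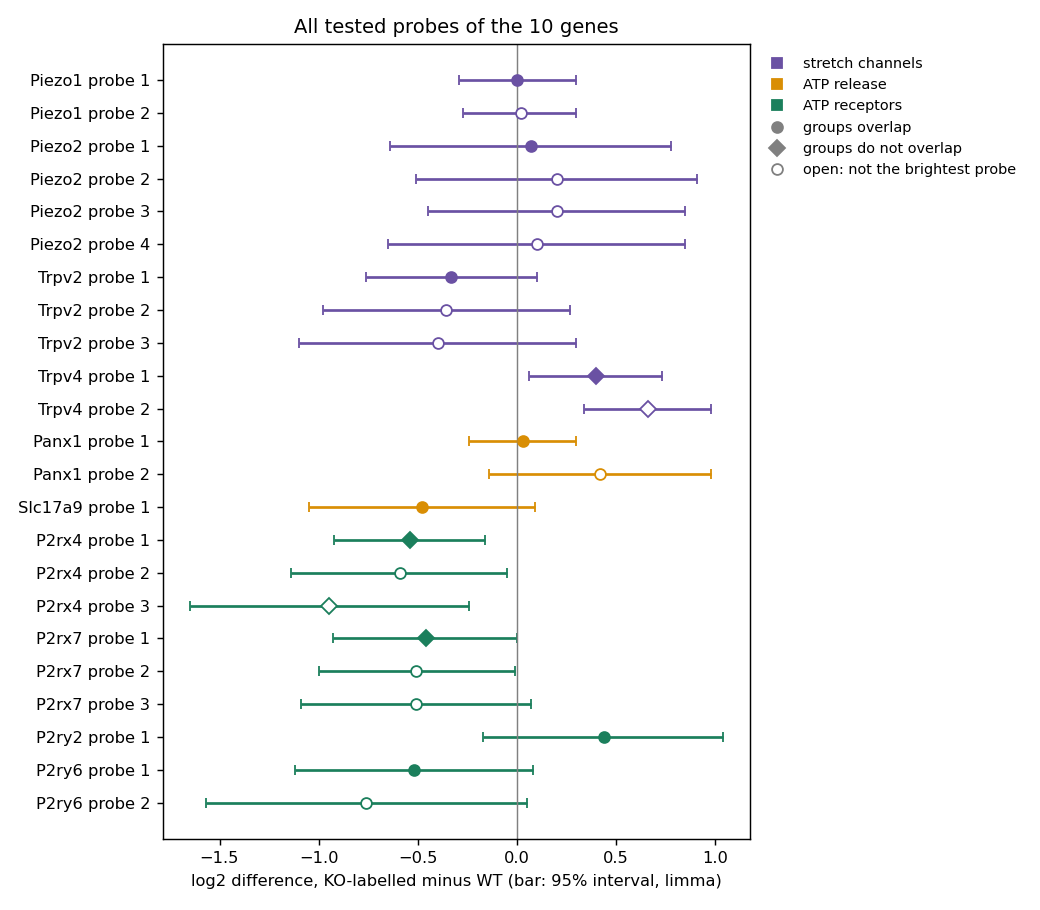
Log2 difference, KO-labelled minus WT, for each of the 23 tested probes of the 10 genes, with its 95% interval from limma. Colour marks the gene's role, filled symbols the brightest probe, and diamonds probes whose groups do not overlap. All 8 genes with more than 1 tested probe have one sign across their probes, and how often that holds over all genes was not counted.

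Where a gene had more than 1 tested probe, which was so for 8 of the 10, its probes had the same sign in all 8. How often that holds over all genes was not counted. For Piezo1, at 0.00 and 0.02, the sign carries little. Probe by probe, 11 of the 23 were higher and 12 lower, where 51.3% of all probes were lower. At an unadjusted p under 0.05 in limma, 2 were higher, beside 4.14% of all probes, and 4 were lower, beside 5.12% of all probes. The arrays did not overlap for 2 higher probes, beside 7.02% of all probes, and 3 lower ones, beside 8.55% of all probes, or 5 in either direction, beside 15.6% of all probes. Probes of one gene read the same 6 RNA samples, so these counts are not independent.

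The lower genes placed the KO-labelled arrays alike. For all 5 of them, P2rx4, P2rx7, P2ry6, Slc17a9 and Trpv2, KO replicates 1 and 2 lay below every WT ureter and KO replicate 3, the female, was the highest of the KO-labelled ureters. In 3 of the 5 (P2ry6, Slc17a9 and Trpv2) that animal was inside the WT range. Without it the differences of the 5 genes were -0.69, -0.65, -0.69, -0.66 and -0.51 in the order just given. The 5 genes were grouped by their lower values, so low KO-labelled arrays are partly built in. How often this placing occurs among all lower genes was not counted. The root mean square difference between profiles over the 6 arrays, each centred on its own mean, was 0.122 between Trpv2 and P2rx7, 0.135 between Trpv2 and P2rx4, and 0.146 between Slc17a9 and P2ry6. Piezo1 and Panx1 had the closest pair of profiles at 0.0295, both nearly flat with WT replicate 1 lowest.

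Macrophage markers, like the 5 lower genes, were lowest in KO replicates 1 and 2. All 10 listed macrophage markers had lower values in KO-labelled ureters, where 50.2% of all genes were lower. Of these 7 had an unadjusted p under 0.05, beside 4.64% of all genes lower at that level, and 0 passed the adjusted threshold (limma). Their median difference was -0.54. Their summed signal was 189 to 300.0 times the array's 75th percentile in KO-labelled ureters, against 305 to 383 times in WT ureters, and KO replicate 3 had the highest KO-labelled sum. The mean log2 level of the macrophage list overlapped, with 4.36 in KO replicate 3 and 4.26 in WT replicate 1. Dendritic cell and MHC class II markers had lower values for 8 of the 8 tested, 7 at an unadjusted p under 0.05, beside 4.64% of all genes, and 0 past the adjusted threshold (limma), with sums of 79.1 to 169 in KO-labelled ureters and 289 to 340 in WT ureters. Xcr1, the one left untested of its 9 markers, was not well above background throughout either group. Among WT ureters, replicate 1 had the lowest mean macrophage level, and also the lowest P2ry6, Slc17a9 and Trpv2 levels. Its P2rx4 level, by contrast, was the highest of the 6 arrays at each tested probe. For P2rx7 this held at probe 1 only. At P2rx7 probes 2 and 3, WT replicate 1 was the lowest WT ureter, at -0.67 and -1.7. For the list with MHC class II genes, its mean log2 level was the highest, 3.14 against 2.98 and 2.88 in WT replicates 2 and 3. The part of either cell type in the values of P2rx4, P2rx7, P2ry6, Slc17a9 and Trpv2 was not tested.

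Epithelial markers were higher in KO-labelled ureters beside Trpv4 and P2ry2. All 11 superficial urothelium markers had higher values in KO-labelled ureters, 6 of them at an unadjusted p under 0.05, beside 4.32% of all genes, and 0 past the adjusted threshold (limma). Their summed signal was 376 to 570 times the array's 75th percentile in KO-labelled ureters, against 224 to 319 times in WT ureters. The mean log2 level of the same list overlapped, with 4.18 in KO replicate 3 and 4.20 in WT replicate 1. Basal urothelium markers were higher for 6 of 8, 3 of them at an unadjusted p under 0.05 (limma), beside 4.32% of all genes. Of the lower ones 1 was at that level too, beside 4.64% of all genes. Its KO-labelled ureters lay wholly below, as they did for 8.13% of all genes. The basal list had sums of 197 to 239 in KO-labelled ureters and 93.3 to 162 in WT ureters. WT replicate 1 had the lowest basal sum, 93.3, and also the lowest P2ry2 level. Smooth muscle markers, all 10 higher with sums of 431 to 651 in KO-labelled ureters and 317 to 522 in WT ureters, overlapped between groups. Mesothelium markers were higher for all 5 tested, 2 at an unadjusted p under 0.05, beside 4.32% of all genes, and 0 past the adjusted threshold (limma). Their sums were 4.80 to 5.75 in KO-labelled ureters and 2.49 to 4.22 in WT ureters. Upk3b stands in both this list and the superficial urothelium list, so the lists are not independent. The mean log2 level of the mesothelium list overlapped, with -0.71 in KO replicate 2 and -0.69 in WT replicate 1. The part of these tissues in the values of Trpv4 and P2ry2 was not tested.

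**Figure D3:**
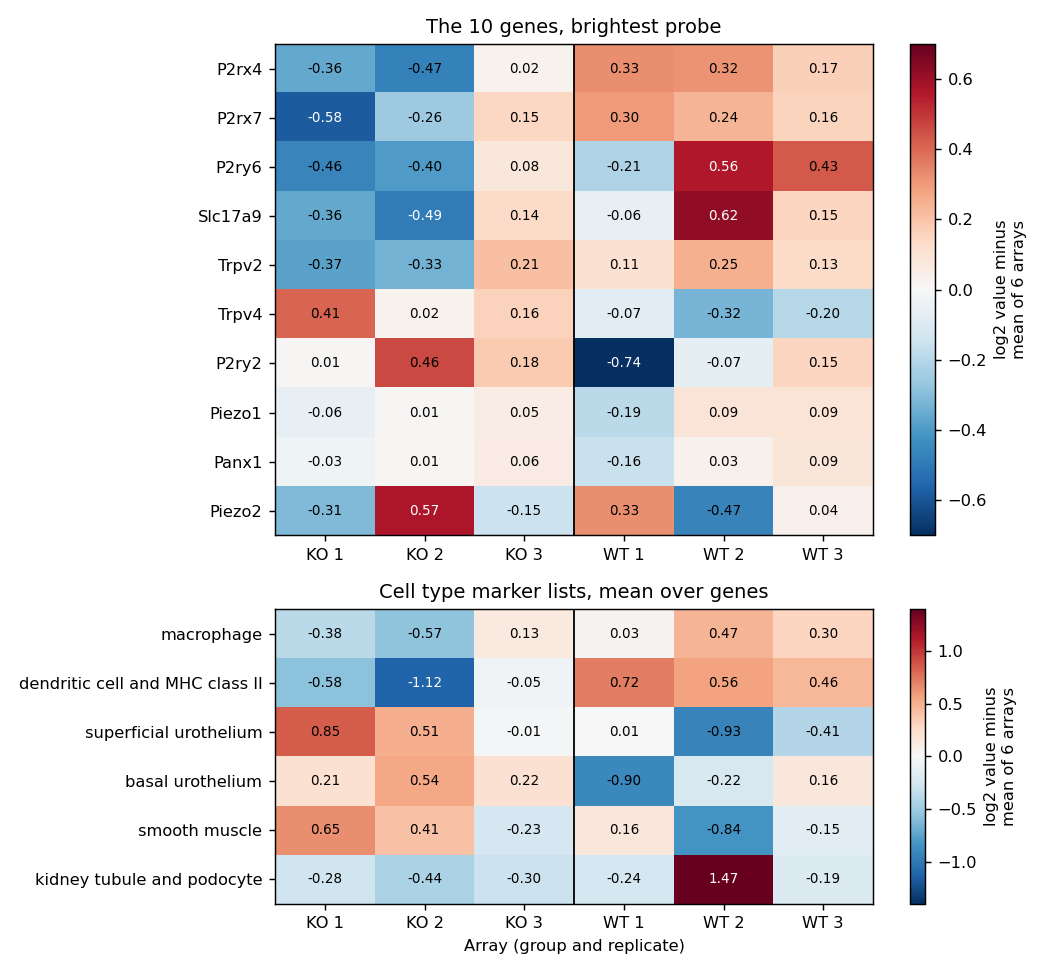
Values on each array after each row was centred on its mean over the 6 arrays (log2), KO-labelled arrays left of the line and WT arrays right. Upper panel, the 10 genes at their brightest probe. Lower panel, the mean over tested genes of 6 cell type marker lists, on a wider colour scale. The first 5 genes and the macrophage list are lowest in KO replicates 1 and 2, and the kidney list is high in WT replicate 2 alone.

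In 5 further lists of the chain the groups separated about as often as over the whole array: 10 of 60 tested genes did not overlap (16.7%), beside 15.4% of all genes. At an unadjusted p under 0.05 in limma there were 6 of the 60, beside 8.95% of all genes, and 0 passed the adjusted threshold. Among 14 tested genes of other mechanosensitive channels and Piezo partners, 9 had higher and 5 lower values, with a median of 0.06. At an unadjusted p under 0.05 there were 2 of the 14, both higher, beside 4.32% of all genes: Tmem63b, an osmosensitive channel, and Mdfi, a protein of the family that binds PIEZO channels. Tmem63b had levels of 3.33 to 3.51 in KO-labelled ureters, against 2.95 to 3.09 in WT ureters, a difference of 0.39 ± 0.11 (standard error; limma, adjusted p = 0.45). Mdfi differed by 0.37 ± 0.12 (standard error; limma, adjusted p = 0.476), and its groups did not overlap either. Tmem63a, a related osmosensitive channel, was the third gene of the list with all KO-labelled ureters above all WT ureters, beside 7.28% of all genes. It differed by 0.22 ± 0.11 (standard error; limma, unadjusted p = 0.0834, adjusted p = 0.582). Another 8 listed genes of this group, among them Trpa1 and Kcnk2, were too dim to be tested.

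Other ATP release genes gave 7 higher and 2 lower values among 9, with a median of 0.13, and none had an unadjusted p under 0.05 in limma. Calhm6, a large-pore channel of immune cells, had the lowest unadjusted p there, 0.114, with a difference of -0.48 ± 0.26 (standard error; limma, adjusted p = 0.612). Its levels were -1.99, -2.18 and -1.89 in KO-labelled ureters, against -0.95, -1.88 and -1.81 in WT ureters, with WT replicate 1 far above the rest and the other WT ureters just above KO replicate 3.

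Other P2X and P2Y receptors gave 3 higher and 7 lower values among 10, with a median of -0.15. P2ry1, a receptor for ADP, was the 1 receptor of these at an unadjusted p under 0.05. Its levels were -0.76, -1.04 and -1.43 in KO-labelled ureters, against -1.37, -1.85 and -1.76 in WT ureters, and KO replicate 3 lay just below WT replicate 1. The difference was 0.58 ± 0.21 (standard error; limma, adjusted p = 0.503).

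Enzymes that break down extracellular nucleotides gave 8 higher and 6 lower values among 14, with a median of 0.17. Entpd3, an ectonucleotidase of urothelium and sensory neurons, had the lowest unadjusted p of all the pathway genes, 0.00194. Its levels were -0.03, 0.28 and 0.13 in KO-labelled ureters, against -0.72, -0.43 and -0.50 in WT ureters, and all KO-labelled ureters lay above all WT ureters. Entpd3 differed by 0.68 ± 0.14 (standard error; limma, adjusted p = 0.427), read from 1 probe. Entpd1, the ectonucleotidase CD39 of leukocytes and vessels, differed by -0.27 ± 0.16 (standard error; limma, adjusted p = 0.634). Nt5e, the ectonucleotidase CD73 that makes adenosine, differed by 0.25 ± 0.25 (standard error; limma, adjusted p = 0.783).

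Adenosine receptors and handling genes gave 4 higher and 9 lower values among 13, with a median of -0.14. The equilibrative transporter Slc29a3, found in lysosomes and known from macrophages, had levels of -0.37, -0.56 and -0.04 in KO-labelled ureters, against 0.23, 0.35 and 0.16 in WT ureters. Its difference was -0.57 ± 0.16 (standard error; limma, adjusted p = 0.45). The concentrative transporter Slc28a3 differed by 0.52 ± 0.18 (standard error; limma, adjusted p = 0.495). The groups did not overlap for 5 of the 13, beside 15.4% of all genes. Slc28a3 and Adk, the kinase that clears adenosine, had KO-labelled ureters above, beside 7.28% of all genes. Slc29a3, Slc29a1 and Slc28a1 had KO-labelled ureters below, beside 8.13% of all genes. The 4 adenosine receptors had differences between -0.17 and 0.39, and all their groups overlapped.

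**Figure D4:**
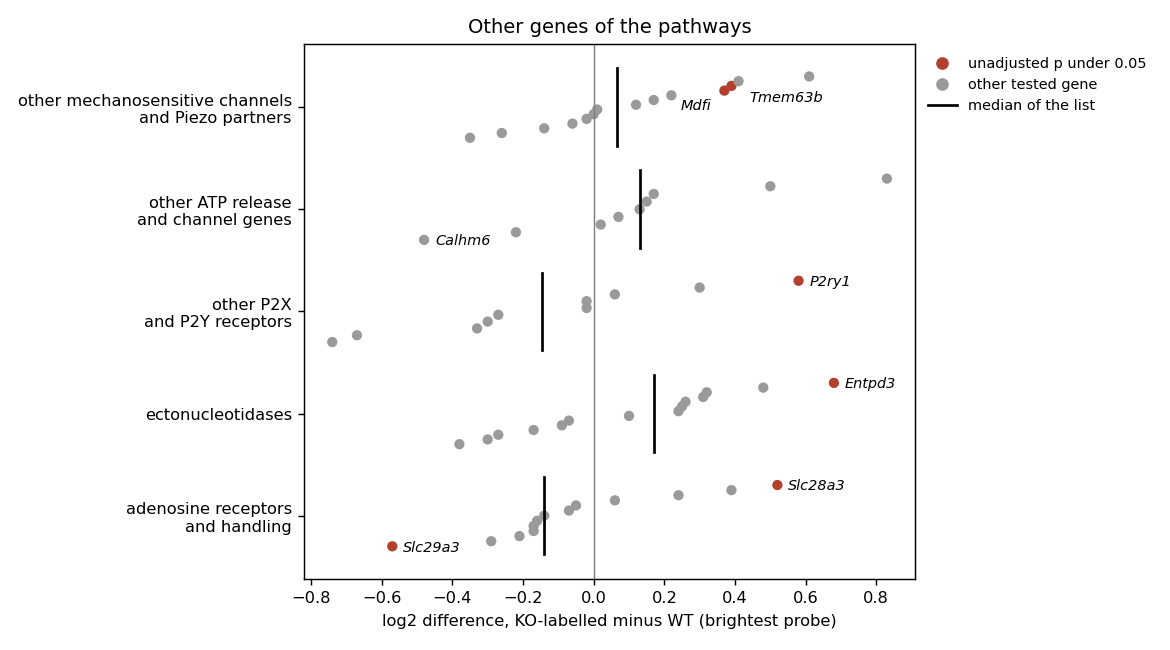
Log2 difference, KO-labelled minus WT, of each tested gene of 5 further lists of the pathway (points, brightest probe, with genes stacked by value within a list) and the median of each list (vertical bars). Red points have an unadjusted p under 0.05 in limma, and none passed the adjusted threshold. Entpd3 has the lowest p.

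By the same profile measure, the genes most like the member with the lowest p in each role were named among 14515 other RefSeq-named genes. Nearest to Trpv4 were Ism1, Zfp512b and Ccdc51, with root mean square differences of 0.0384, 0.0418 and 0.0507 over 6 arrays. For Slc17a9 the nearest were Hdac9, Slfn3 and Mast3, at 0.0508, 0.0593 and 0.0623. P2rx4 had Acvrl1, Pced1a and Pnpla7 nearest, at 0.0318, 0.0362 and 0.0425. With 6 arrays and that many candidates, close profiles arise readily, and these names are a description only.

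RefSeq promoter sequences (GRCm38.p6) were at hand for 7 of the 10 genes, over 11 start sites, with Piezo2, P2ry6 and Slc17a9 not among them. In the 250 bases before each start, 3 motifs were searched on both strands: GAGGAA, a core read by the myeloid factor PU.1, TGANTCA, the AP-1 site, and GGAATG, the TEAD core, which can overlap GAGGAA. They occur before 23.3%, 6.75% and 12.6% of 32851 start sites. GAGGAA was found before 2 overlapping Trpv2 starts, GGAATG before another Trpv2 start, and TGANTCA before 1 P2rx7 start. P2rx4, P2ry2, Trpv4, Piezo1 and Panx1 had none of these letters in the window. A match is a run of letters and not a bound site. The stretches before the first-listed Trpv2 start (chr11:62574236-62574485, plus strand) and the P2rx7 start (chr5:122643677-122643926, plus strand) are shown because they hold matches among the genes with lower values, with the matches in capitals.
Trpv2 promoter: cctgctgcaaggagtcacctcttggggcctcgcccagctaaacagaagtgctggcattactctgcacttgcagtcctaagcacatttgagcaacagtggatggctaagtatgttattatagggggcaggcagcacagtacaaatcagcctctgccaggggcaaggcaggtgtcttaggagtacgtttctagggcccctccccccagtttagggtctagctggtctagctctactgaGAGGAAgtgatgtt
P2rx7 promoter: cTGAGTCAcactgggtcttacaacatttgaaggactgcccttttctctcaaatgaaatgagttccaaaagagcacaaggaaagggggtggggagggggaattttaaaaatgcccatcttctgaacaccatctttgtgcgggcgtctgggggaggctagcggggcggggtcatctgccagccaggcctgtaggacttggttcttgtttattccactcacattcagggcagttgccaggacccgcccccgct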

How the data were processed

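The deposited intensity values are processed signals of Agilent Feature Extraction 12.0.3.1, with background subtraction and spatial detrending within an array, per the file headers. Any scaling by the authors across arrays was not given in the sources used here. Spots flagged as outliers were set to missing, spots of a probe were averaged on the log2 scale, and from each log2 processed signal the 75th percentile of the same array was subtracted (56605 probes, controls left out). No spot was saturated, no member value was missing, and all arrays shared 1 scan time. Probes well above background numbered 35482 to 36567 on an array. Accessions of 35405 probes matched RefSeq (GRCm38.p6), and other probes kept the file's name. The fit (lmFit, then eBayes; limma 3.58.1, R 4.3.3) took the 35069 probes that were above background throughout one or both groups, and p-values were adjusted over all of these by Benjamini-Hochberg. The procedure was also run on simulated arrays with known changes, all of them larger than the differences of the members. That run does not tell how well differences as small as theirs are recovered. The number of arrays limits precision: an exact permutation test of 3 against 3 cannot go below p = 0.1. Members, lists and naming rules were chosen with earlier results of these data known. Named were all members, Col17a1, up to 4 genes of each other pathway list at an unadjusted p under 0.05 (or the lowest), and the 3 closest profiles per role. Tmem63a, Entpd1, Nt5e, Trpa1, Kcnk2, Adk, Slc29a1, Slc28a1 and the adenosine receptors were named after their values were seen. Alternatives covered background, normalisation, filter, probe choice, variance model, array weights, sex, replicate block and left-out arrays. Samples are separate mice by their labels. Same-numbered arrays deviated from their group means with correlations of 0.505, -0.145 and -0.0418 across probes. The first was the highest of all combinations, followed by 0.443 for KO replicate 3 with WT replicate 2. Deviations from the mean of 3 arrays are tied to each other, so these values cannot decide whether the numbers pair mice. The main fit was unpaired.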

Additional observations from a re-analysis of the deposited data

How the results depend on the processing

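In most of 18 alternatives 0 probes passed the adjusted threshold of 0.05. Array weights gave 2544 probes, 1283 higher and 1261 lower, but their estimation stopped before it converged and the highest weight was 38 times the lowest. Under them P2rx4, P2ry6 and Trpv4 passed with differences of -0.51, -0.78 and 0.47 (limma, adjusted p = 0.0416, 0.0377 and 0.0473), and in no other setting did one of the 10 genes pass. With the replicate block 1 probe passed, and leaving out each array gave 0 to 1. Those probes, seen only afterwards, carry a transcript identifier and no gene name in the files. The block left the differences of the 10 genes as they were. Their median ran from -0.27 to -0.09 over the alternatives. P2rx4, P2rx7, P2ry6, Slc17a9, Trpv2, Trpv4 and P2ry2 kept their sign in all of them. Piezo1, Piezo2 and Panx1 did not: with array weights they were -0.108, -0.057 and -0.079. Fitting sex as a covariate, where the single female then carries no weight, put Piezo1 at -0.021. Leaving out each array gave -0.089 to 0.053 for Piezo1, -0.042 to 0.079 for Panx1 and -0.195 to 0.252 for Piezo2. Averaging the probes of a gene put Panx1 at 0.224. Dropping WT replicate 2 together with KO replicate 3 put Piezo2 at -0.054. P2ry2 was 0.04 with array weights.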
